A study of Mus musculus with 6 samples.

Results

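Expression of 10 genes from a pair of imprinted domains was examined in mouse tailbud RNA, among 35506 genes in the table. The genes were chosen by name: Igf2r, Airn, Slc22a2 and Slc22a3 form the Igf2r domain, and Kcnq1ot1, Cdkn1c, Phlda2, Slc22a18, Cd81 and Tssc4 come from the Kcnq1 domain. All 10 were found in the table. The study dissected the tailbud, the growing posterior end of the embryo, at 8 somites (embryonic day 8.5), and sequenced polyadenylated RNA from single embryos. The WT group held 3 Smchd1+/+ embryos, and the MommeD43 group held 3 Smchd1 MommeD43/MommeD43 embryos. MommeD43 came from a mutagenesis screen and changes 1 amino acid of SMCHD1. This protein binds chromatin and is known for its part in X inactivation and in silencing of gene clusters, some imprinted clusters included. All embryos were FVB/NJ. Replicate 1 of each group was male and replicates 2 and 3 were female. According to the labels the males shared a mother and the 4 females each came from a different one.

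Imprinted genes are expressed mainly from the maternal or the paternal copy. In both domains a long noncoding RNA is made from the paternal chromosome, Airn in antisense direction through Igf2r and Kcnq1ot1 in antisense direction within Kcnq1. Each is known to repress protein-coding neighbors on the same chromosome, some of them in placenta alone, and both promoters lie at or near a control region that carries maternal DNA methylation. The libraries do not separate the parental copies, so every value below is the sum of both alleles.

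Library totals ranged from 10957916 to 47298348 reads, with the shallowest library being MommeD43 replicate 1. Values are in RPKM, read counts scaled to exon length and sequencing depth. The sex labels held in all 6 libraries: Xist was at 0.0137 and 0.0153 RPKM in the males and between 27.3 and 39.9 RPKM in the females. The 12 tailbud markers summed to between 779 and 1052 RPKM per library. The 10 neural stem cell markers, examined because the source field of the labels names NSCs, summed to between 30.5 and 42.8 RPKM. The 12 markers of yolk sac endoderm, a tissue outside the embryo, differed widely between libraries. They summed to 154, 271 and 304 RPKM in WT replicates 1, 2 and 3 and to 473, 56.9 and 41.7 RPKM in MommeD43 replicates 1, 2 and 3, and no defining marker among them was without a read in every library. The 10 primitive blood markers ranged from 13.6 to 493 RPKM in WT and from 26.6 to 225 RPKM in MommeD43. In bulk tissue, fewer cells of a type and less RNA per cell cannot be told apart.

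The Igf2r domain spans 441 kb of chromosome 17 (GRCm38) between the ends of Slc22a3 and Airn. Igf2r (ENSMUSG00000023830, chr17:12682406-12769664, minus strand) and Airn (ENSMUSG00000078247, chr17:12741311-12860136, plus strand) overlap in their first parts, and the Airn start lies 28.4 kb inside Igf2r. Airn was counted over 8 annotated exon blocks of 3597 bases in all, so reads from the rest of its span did not enter its value. Slc22a2 (chr17:12584132-12628488, plus strand) and Slc22a3 (chr17:12418960-12507704, minus strand) start 157 and 234 kb from the Airn start. Smchd1 is on the same chromosome, 58.7 Mb from Airn. The Kcnq1 domain genes examined span 450 kb of chromosome 7. Kcnq1ot1 (ENSMUSG00000101609, chr7:143203458-143296549, minus strand) is annotated as 1 exon of 93092 bases. Cdkn1c (chr7:143458339-143461050, minus strand), Slc22a18 (chr7:143473736-143499334, plus strand) and Phlda2 (chr7:143501545-143503150, minus strand) lie upstream of it. Tssc4 (chr7:143069249-143071093, plus strand) and Cd81 (chr7:143052739-143067934, plus strand) lie beyond its far end, with starts 227 and 244 kb from the Kcnq1ot1 start.

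The promoter windows of the long noncoding RNAs, of the gene that Airn runs through and of Tssc4 are shown. No comparison of levels below uses these windows. They are RefSeq windows on GRCm38.p6, with 250 bases before and 50 after each start. They read 5′ to 3′ on the strand of the gene, and capitals mark each CG, the pair of bases at which DNA is methylated. The windows are chr17:12741061-12741360 (plus strand) for Airn, chr7:143296498-143296797 (minus strand) for Kcnq1ot1, chr17:12769657-12769956 (minus strand) for Igf2r and chr7:143069118-143069417 (plus strand) for Tssc4.
Airn: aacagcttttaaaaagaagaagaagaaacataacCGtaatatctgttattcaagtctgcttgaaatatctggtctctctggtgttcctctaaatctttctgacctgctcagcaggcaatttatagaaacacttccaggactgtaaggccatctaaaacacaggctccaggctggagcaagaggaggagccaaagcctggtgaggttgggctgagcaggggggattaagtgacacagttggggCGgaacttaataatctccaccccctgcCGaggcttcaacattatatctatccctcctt
Kcnq1ot1: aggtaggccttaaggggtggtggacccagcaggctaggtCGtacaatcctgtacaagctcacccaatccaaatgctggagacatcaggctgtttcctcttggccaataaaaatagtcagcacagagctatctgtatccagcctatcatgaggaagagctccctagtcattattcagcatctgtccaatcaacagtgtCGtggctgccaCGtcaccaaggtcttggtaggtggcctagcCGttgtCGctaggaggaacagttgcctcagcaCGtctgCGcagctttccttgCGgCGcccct
Igf2r: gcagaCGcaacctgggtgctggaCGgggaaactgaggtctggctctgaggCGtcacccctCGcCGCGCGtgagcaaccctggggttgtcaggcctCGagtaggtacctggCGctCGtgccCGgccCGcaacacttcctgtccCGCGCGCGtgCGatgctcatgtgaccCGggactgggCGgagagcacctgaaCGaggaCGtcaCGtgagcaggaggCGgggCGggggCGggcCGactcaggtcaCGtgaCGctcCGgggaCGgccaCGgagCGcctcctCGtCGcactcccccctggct
Tssc4: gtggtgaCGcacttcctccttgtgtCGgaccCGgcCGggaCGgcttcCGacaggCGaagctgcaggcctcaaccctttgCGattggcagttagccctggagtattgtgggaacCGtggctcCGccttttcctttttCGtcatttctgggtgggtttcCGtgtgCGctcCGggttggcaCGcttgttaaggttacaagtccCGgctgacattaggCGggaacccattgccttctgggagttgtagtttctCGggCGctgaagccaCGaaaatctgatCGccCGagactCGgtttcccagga

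The Airn window held 3 CG, the Kcnq1ot1 window 9, the Tssc4 window 23 and the Igf2r window 34. Across all 32817 promoter windows of this length the median was 7, and 94.6% held at least 1. RefSeq windows were matched for 9 of the 10 genes. Those of Phlda2 and Cd81 held 26 and 23 CG, whereas those of Slc22a2, Slc22a3 and Slc22a18 held 8, 5 and 2. The letters CCAAT, searched on both strands, were found 3 times in the Kcnq1ot1 window and 2 times in that of Slc22a2. The windows of Phlda2 and Tssc4 held 1 match each. Of all windows 37.4% held at least 1 match, and the share with 3 was not counted. The letters TGCCGC, also searched, were found 1 time, in the Slc22a2 window, where 11.6% of all windows held a match.

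The genes spanned a wide range of levels per length, shown in the plot of RPKM by library. Phlda2 was highest, with a mean of 155 RPKM over the 6 libraries. Igf2r, Cd81 and Cdkn1c followed with means of 43.6, 40.9 and 36.5 RPKM, and their ranges overlapped, so that their order was not resolved. Tssc4 came next with 23.1 RPKM. Then Airn with 2.02, Slc22a18 with 1.20 and Slc22a3 with 0.348 RPKM were each separated from their neighbors in the order. Slc22a2 and Kcnq1ot1 were lowest, with means of 0.0935 and 0.0837 RPKM and overlapping ranges. For Kcnq1ot1 the low value came from spreading 78 to 255 reads per library over its long exon, whereas Slc22a2 had 1 to 7 reads.

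**Figure D1:**
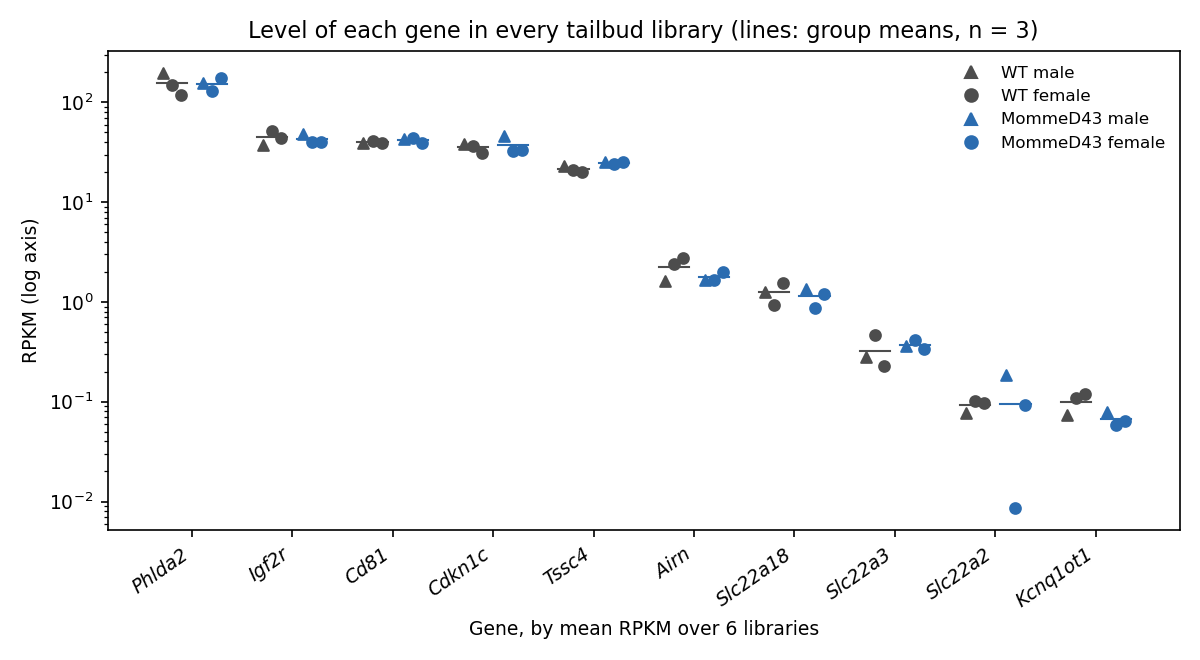
RPKM of the 10 genes in each of the 6 libraries on a log axis, ordered by mean level, with triangles for males, circles for females and lines at group means (n = 3 per group). Phlda2 was highest at 118 to 199 RPKM and Kcnq1ot1 was at 0.0579 to 0.118 RPKM, and the groups overlapped for all genes except Tssc4.

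The first question was whether MommeD43 altered the level of these genes. None of them passed a Benjamini-Hochberg adjusted p of 0.05 (limma), and neither did any of the 13617 autosomal genes tested (0%). At an unadjusted p under 0.05, 1 of the 9 tested genes, Tssc4, was called, where 2.40% of all tested genes were (1.42% higher and 0.977% lower in MommeD43). Groups did not overlap for 1 of 9 genes, again Tssc4, against 7.08% of all tested genes (3.53% higher and 3.55% lower). Of the 9 genes, 5 were higher and 4 lower in MommeD43, where 49.0% of all tested genes were lower, with a median log2 fold change of 0.01 beside 0.00 over all tested genes. The adjusted p in this fit was 0.999 for every one of the 9 genes, so none of their differences over all 6 libraries passed the test. The 95% interval of the fold change stayed within 1.5-fold either way for 5 genes, Igf2r, Cdkn1c, Phlda2, Cd81 and Tssc4. For Airn, Slc22a3, Kcnq1ot1 and Slc22a18 the intervals were wider.

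**Figure D2:**
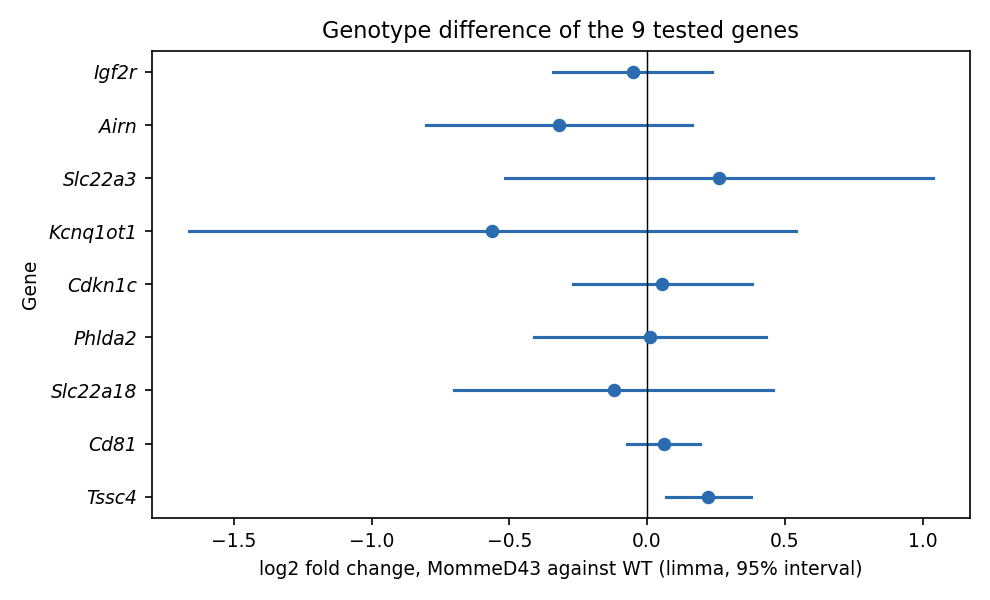
log2 fold change of MommeD43 against WT for the 9 tested genes, with 95% intervals from limma (3 embryos per group). The interval of Tssc4, from 0.07 to 0.38, lies above 0 and the intervals of the other 8 genes include 0, with the widest for Kcnq1ot1.

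The long noncoding RNAs come first. Airn was at 1.62, 2.40 and 2.76 RPKM in WT replicates 1, 2 and 3, on 214, 204 and 165 reads. In MommeD43 replicates 1, 2 and 3 it was at 1.65, 1.66 and 2.02 RPKM, on 65, 283 and 95 reads. The female WT embryos were highest, and the WT male was the lowest of all 6, so the groups overlapped. The log2 fold change was -0.32 ± 0.21 (SE, n = 3 per group, 95% interval -0.80 to 0.16, limma adjusted p = 0.999).

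Kcnq1ot1 was at 0.0730, 0.110 and 0.118 RPKM in WT replicates 1, 2 and 3, on 249, 241 and 183 reads. It was at 0.0794, 0.0579 and 0.0640 RPKM in MommeD43 replicates 1, 2 and 3, on 81, 255 and 78 reads. Again the WT females were highest. The groups overlapped because the WT male lay below the MommeD43 male, while both MommeD43 females lay below every other embryo. The log2 fold change was -0.56 ± 0.48 (SE, 95% interval -1.66 to 0.54, limma adjusted p = 0.999). limma set the spread by the RPKM level, at which Kcnq1ot1 ranked above 0.984% of tested genes, although its reads were in the range of those of Airn. With voom in limma on recovered reads, which sets the spread by read number, the log2 fold change was -0.57 ± 0.22 with an unadjusted p of 0.0296 and an adjusted p of 0.9996.

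Airn and Kcnq1ot1 lie on different chromosomes and had the same order of levels among WT embryos. The log2 ratio of Airn to Kcnq1ot1 within a library was 4.48, 4.45 and 4.54 in WT replicates 1, 2 and 3, so it varied by 0.05 (SD) while each RNA varied by 0.40 and 0.37. In MommeD43 replicates 1, 2 and 3 it was 4.38, 4.84 and 4.98. The MommeD43 females had the highest ratios and the MommeD43 male the lowest. Counting error was not included in these spreads. In WT replicate 1 the interval of the read count ran from 1.41 to 1.86 RPKM for Airn. For Kcnq1ot1 in the same library it ran from 0.0643 to 0.0827 RPKM. On a log2 scale, counting error of this size exceeds the WT spread of 0.05. The reads were therefore too few to resolve so small a spread. It also rests on 3 WT embryos, and the ratio varied by 0.32 (SD) in MommeD43. No close tracking of the RNAs can be read from the WT spread. No test was made on ratios.

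**Figure D3:**
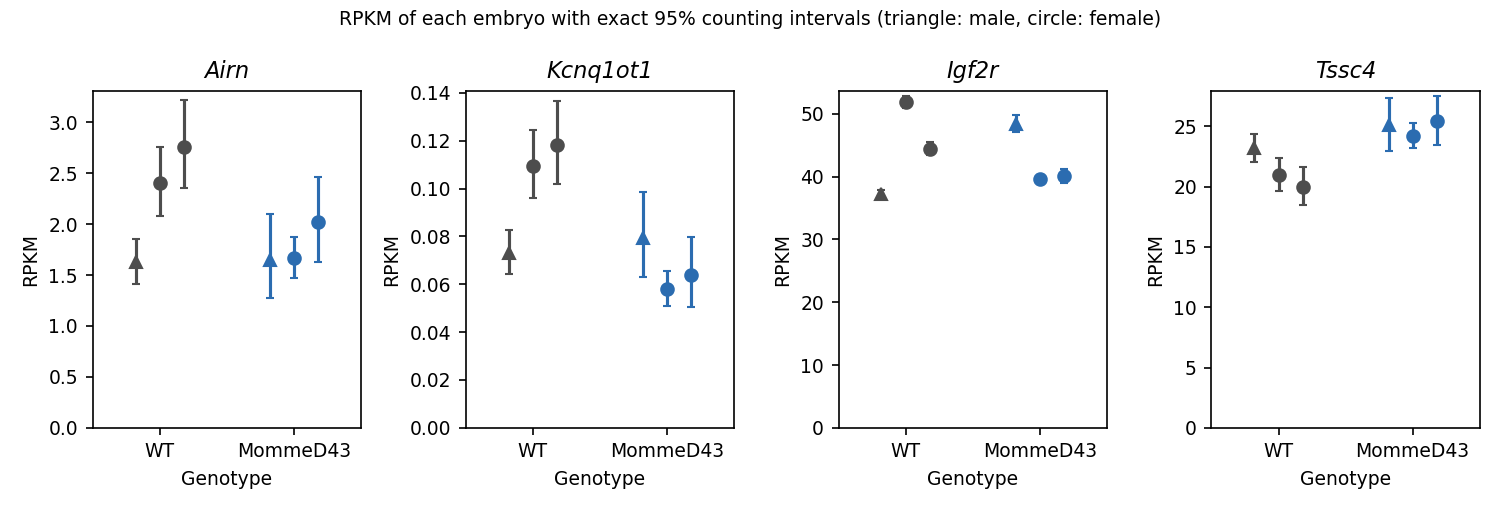
RPKM of Airn, Kcnq1ot1, Igf2r and Tssc4 in each embryo on axes that start at 0, with exact (Clopper-Pearson) 95% intervals of the read counts, which cover counting error only. Both MommeD43 females lie below both WT females for Airn, Kcnq1ot1 and Igf2r, the males do not, and all 3 MommeD43 embryos lie above the WT embryos for Tssc4.

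The protein-coding genes of the Igf2r domain were examined next. Igf2r encodes the receptor that takes up IGF2 for breakdown and sorts lysosomal enzymes. It was at 37.2, 52.0 and 44.4 RPKM in WT replicates 1, 2 and 3, and at 48.4, 39.7 and 40.1 RPKM in MommeD43 replicates 1, 2 and 3. A WT female was highest and the WT male lowest, and the groups overlapped. Between groups the log2 fold change was -0.05 ± 0.13 (SE, 95% interval -0.34 to 0.24, limma adjusted p = 0.999). The value changed sign when WT replicate 2 was left out, to 0.07, and when the yolk sac marker level was a covariate, to 0.07. Igf2r was highest in WT replicates 2 and 3 and MommeD43 replicate 1, the same 3 libraries that had the highest sums of yolk sac endoderm markers. All 12 of these markers were lower in MommeD43, with a median log2 fold change of -1.11 and 0 at an unadjusted p under 0.05 over all 6 libraries. Within the females all 12 were lower, with a median of -2.57 and 7 past a limma adjusted p of 0.05, and in the male pair all 12 were higher, with a median of 1.56. Their part in the level of Igf2r was not tested beyond the covariate above.

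**Figure D4:**
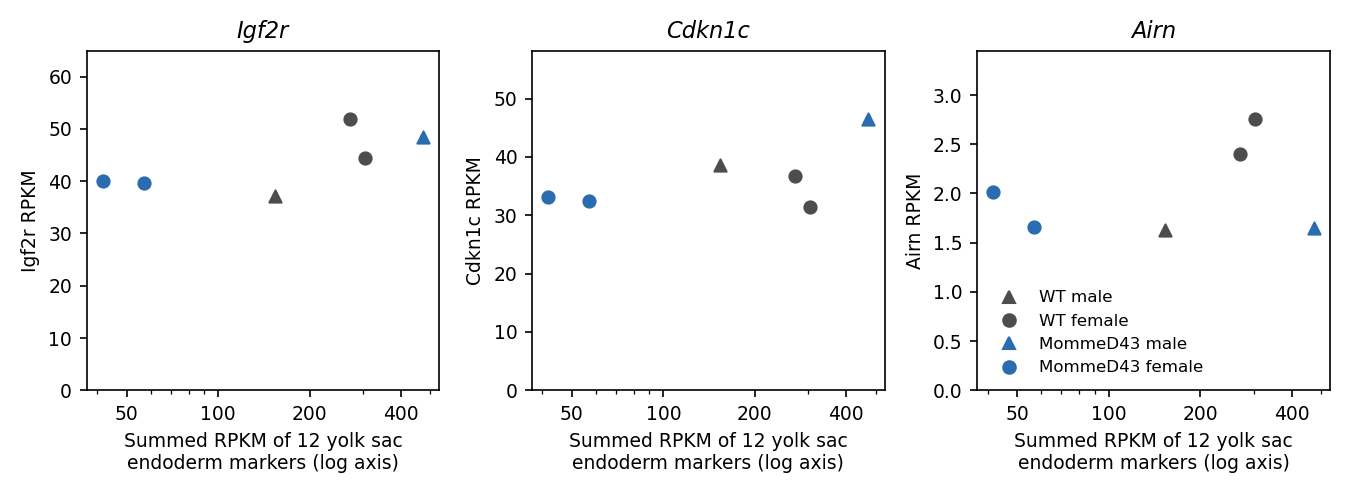
RPKM of Igf2r, Cdkn1c and Airn in each of the 6 embryos against the summed RPKM of 12 yolk sac endoderm markers on a log axis. Igf2r was at 44.4 RPKM or above in the 3 libraries with marker sums of 271 to 473 RPKM and at 40.1 RPKM or below in the other 3, while Airn was at 1.65 RPKM in the library with the highest sum.

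Slc22a3, an organic cation transporter, was at 0.278, 0.469 and 0.227 RPKM in WT replicates 1, 2 and 3. It was at 0.364, 0.412 and 0.339 RPKM in MommeD43 replicates 1, 2 and 3. The MommeD43 values lay between the extremes of WT, on 17 to 88 reads per library. This gave a log2 fold change of 0.26 ± 0.34 (SE, 95% interval -0.52 to 1.04, limma adjusted p = 0.999). Slc22a2, a transporter of the same family, had 7, 6 and 4 reads in WT replicates 1, 2 and 3 and 5, 1 and 3 reads in MommeD43 replicates 1, 2 and 3. These are 0.0770, 0.102 and 0.0969 RPKM and 0.184, 0.00851 and 0.0923 RPKM, and the last group held both the highest and the lowest embryo. Slc22a2 did not pass the filter on low values. An exact permutation test of its RPKM gave p = 1, two-sided, where 0.1 is the smallest p that 3 against 3 can give, and no difference was detectable with so few reads.

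In the Kcnq1 domain, Cdkn1c encodes p57, an inhibitor of cyclin-dependent kinases that restrains the cell cycle. Its level was 38.5, 36.8 and 31.4 RPKM in WT replicates 1, 2 and 3, and 46.5, 32.4 and 33.1 RPKM in MommeD43 replicates 1, 2 and 3. The MommeD43 male was highest and the other 5 embryos lay between 31.4 and 38.5 RPKM. The log2 fold change was 0.06 ± 0.14 (SE, 95% interval -0.27 to 0.38, limma adjusted p = 0.999). Without that embryo it was -0.11. A gene on the opposite strand covers 30.7% of the exons of Cdkn1c.

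Phlda2 encodes a small pleckstrin homology domain protein known to restrain placental growth. It was at 199, 149 and 118 RPKM in WT replicates 1, 2 and 3 and at 158, 129 and 175 RPKM in MommeD43 replicates 1, 2 and 3. The WT embryos held both the highest and the lowest value. Markers of trophoblast and decidua (13 genes) summed to between 17.2 and 32.1 RPKM in WT and between 25.9 and 42.9 RPKM in MommeD43, and their part in the level of Phlda2 was not tested. This gave a log2 fold change of 0.01 ± 0.18 (SE, 95% interval -0.41 to 0.43, limma adjusted p = 0.999). Slc22a18, a membrane transporter gene between Cdkn1c and Phlda2, was at 1.27, 0.922 and 1.56 RPKM in WT and 1.34, 0.871 and 1.21 RPKM in MommeD43 replicates 1, 2 and 3. The groups overlapped, with a log2 fold change of -0.12 ± 0.25 (SE, 95% interval -0.70 to 0.46, limma adjusted p = 0.999).

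Cd81, a tetraspanin of the cell surface, varied least of the 9 genes, with a residual SD above that of 12.4% of all tested genes. It was at 39.5, 41.1 and 39.5 RPKM in WT and at 42.7, 43.5 and 39.1 RPKM in MommeD43 replicates 1, 2 and 3. MommeD43 replicate 3 was the lowest of all and the groups overlapped. Between groups the log2 fold change was 0.06 ± 0.06 (SE, 95% interval -0.07 to 0.19, limma adjusted p = 0.999).

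Tssc4, whose product is an assembly factor of spliceosomal snRNPs, was the exception in that the groups did not overlap. It was at 23.2, 20.97 and 19.99 RPKM in WT replicates 1, 2 and 3, on 1566, 914 and 613 reads. It was at 25.1, 24.2 and 25.4 RPKM in MommeD43 replicates 1, 2 and 3, on 507, 2114 and 614 reads. Every MommeD43 embryo was above every WT embryo, with the gap narrowest between the WT male and MommeD43 replicate 2. Between groups the log2 fold change was 0.22 ± 0.07 (SE, 95% interval 0.07 to 0.38, 1.17-fold). Its unadjusted p of 0.0105 ranked 41 among 13617 genes and did not pass adjustment (limma adjusted p = 0.999). The unadjusted p stayed between 0.0014 and 0.0424 under all alternatives run, which included leaving out each library. Exons of Trpm5 on the opposite strand cover 11.9% of Tssc4, and Trpm5 was at 0.0165 RPKM or less in every library.

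The genotype difference was also taken within sex, with 1 male and 2 females per group. Within the females, 3 of 9 genes had an unadjusted p under 0.05, where 8.72% of all tested genes did. These were Igf2r with a log2 fold change of -0.27 ± 0.08 (SE), Airn with -0.49 ± 0.18 and Tssc4 with 0.28 ± 0.07, with limma adjusted p of 0.534, 0.572 and 0.432. Kcnq1ot1 had the largest female difference, -0.90 ± 0.58 (unadjusted p 0.166). In the same females all 12 yolk sac endoderm markers were lower with an unadjusted p under 0.05, for example Ttr with a log2 fold change of -2.37 ± 0.07 and Apom with -2.56 ± 0.08 (SE, limma adjusted p 8.9e-05 for both). Other marker lists shifted in the females as well. All 11 tested tailbud markers were higher, with a median log2 fold change of 0.29. Of these, 8 had an unadjusted p under 0.05 and 0 passed adjustment (limma). In the male pair 10 of the 11 were lower, with a median of -0.41. All 7 tested primitive blood markers were lower in the females, 2 of them at an unadjusted p under 0.05. The part of these marker shifts in the female differences was not tested. In the male pair the log2 differences of Igf2r, Airn, Kcnq1ot1 and Tssc4 were 0.38, 0.02, 0.12 and 0.11. Signs were opposite in the male pair and the females for 6 of 9 genes, against 60.0% of all tested genes.

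The difference between the sexes was tested as a sex by genotype term. Igf2r was the 1 gene of 9 with an unadjusted p under 0.05 (difference of the log2 fold changes 0.65, unadjusted p 0.0029, limma adjusted p = 0.188), where 10.8% of all tested genes had one. No gene of the domains passed adjustment, and 0.272% of all tested genes did. For Airn and Kcnq1ot1 the differences were 0.51 and 1.02 with unadjusted p of 0.145 and 0.345. The male arm rests on 1 embryo per genotype, and the MommeD43 male also had the highest yolk sac marker sum, so sex and that embryo cannot be told apart.

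Within each library, the level of a coding gene was then set against the long noncoding RNA of its domain. The log2 ratio of Igf2r to Airn was 4.52, 4.44 and 4.01 in WT and 4.87, 4.58 and 4.31 in MommeD43 replicates 1, 2 and 3, a difference of 0.27 with overlapping groups. The log2 ratio of Tssc4 to Kcnq1ot1 was 8.31, 7.58 and 7.40 in WT and 8.30, 8.71 and 8.63 in MommeD43. This was the largest difference, 0.78, and it arose in the females (1.18), since the male pair differed by -0.01. For Cdkn1c, Phlda2, Slc22a18 and Cd81 the differences of the ratio to Kcnq1ot1 were 0.62, 0.57, 0.44 and 0.62, and for Slc22a3 to Airn 0.58. All 7 groups of ratios overlapped, and the ratios to Kcnq1ot1 share the same denominator. Each difference equals the log2 fold change of the coding gene minus that of the noncoding RNA, so it adds no separate result. The value of -0.56 for Kcnq1ot1 thus enters every ratio to it.

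Other genes around the same RNAs were examined within 1 Mb of each start. Of 17 tested neighbors of Airn, itself and the domain genes included, 7 were higher and 10 lower, with 1 at an unadjusted p under 0.05, where 49.0% of all tested genes were lower and 2.40% were called. This was Mrpl18, a mitochondrial ribosomal protein gene 175 kb from the Airn start, at 56.2 ± 1.468 RPKM in WT and 61.7 ± 2.81 in MommeD43 (SD, n = 3 each, log2 fold change 0.13 ± 0.05 SE, limma adjusted p = 0.999). Acat3 and Pnldc1 were next, with log2 fold changes of 0.91 ± 0.43 and 0.84 ± 0.43 on 6 to 60 reads per library. Mas1, which the far end of Airn overlaps, had 3 to 9 reads per library and was not tested.

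Of 26 tested genes within 1 Mb of the Kcnq1ot1 start, 19 were higher and 7 lower in MommeD43, with 3 higher and 1 lower at an unadjusted p under 0.05. Over all tested genes 49.0% were lower, and 1.42% were higher and 0.977% lower at that threshold. Beside Tssc4, R74862 and Ctsd had the smallest p. R74862, a noncoding transcript on the opposite strand next to Cd81, was at 1.22, 1.31 and 1.10 RPKM in WT and at 0.704, 1.04 and 0.786 RPKM in MommeD43 replicates 1, 2 and 3. It was lower in all MommeD43 embryos (log2 fold change -0.54 ± 0.20, SE, limma adjusted p = 0.999), and its start lies 243 kb from that of Kcnq1ot1, like those of Tssc4 and Cd81. Ctsd, a lysosomal protease gene, had a log2 fold change of 0.12 ± 0.05. Another gene on the same strand shares 34.4% of its exons, which leaves this value uncertain. Kcnq1 itself, the potassium channel gene that Kcnq1ot1 lies within, had 6, 18 and 16 reads in WT and 5, 11 and 0 in MommeD43 and was not tested. Ascl2, a trophoblast transcription factor gene of this domain, was at 0.479 ± 0.262 RPKM in WT and 0.626 ± 0.106 in MommeD43 (SD, n = 3 each, limma adjusted p = 0.999).

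**Figure D5:**
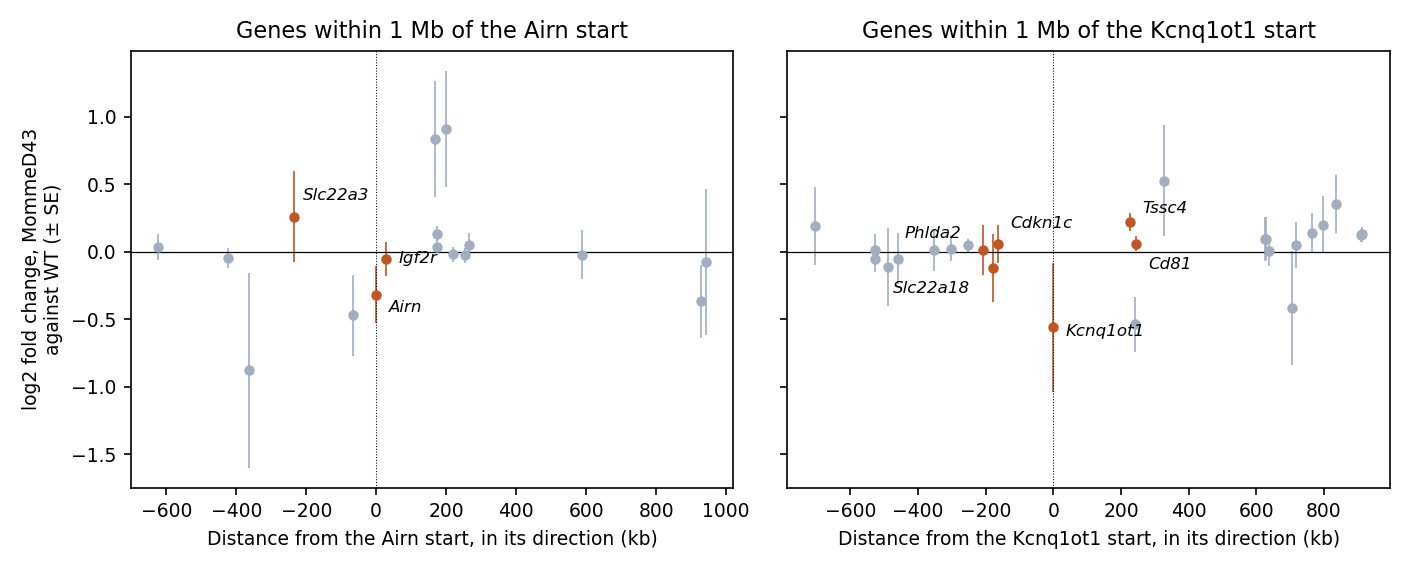
log2 fold change of MommeD43 against WT (± SE) for the tested genes within 1 Mb of the Airn start (17 genes) and the Kcnq1ot1 start (26 genes), against distance from that start in kb, with genes of the domains studied here in orange. Airn and Kcnq1ot1 stand at 0 kb with -0.32 and -0.56, and Tssc4 lies beside R74862, at 0.22 and -0.54.

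Genes that act with the products of these domains were taken as lists. Over all tested genes 49.0% were lower in MommeD43 and 2.40% had an unadjusted p under 0.05 (limma). In the IGF pathway, 8 of 16 genes were higher and 8 lower, with 1 in each direction at an unadjusted p under 0.05. Igf1r, the receptor that signals growth in response to IGF1 and IGF2, was at 9.83 ± 0.205 RPKM in WT and 8.51 ± 0.230 in MommeD43 (SD, n = 3 each), and the groups did not overlap (log2 fold change -0.21 ± 0.07, SE, limma adjusted p = 0.999). Igfbp3, an IGF binding protein gene, was at 9.73 ± 0.667 and 11.0 ± 0.288 RPKM (log2 fold change 0.19 ± 0.07). Igf2, the ligand gene, was at 272 ± 60.8 RPKM in WT and 287 ± 30.2 in MommeD43 (log2 fold change 0.10 ± 0.16), although 62.8% of its exons are shared with a gene on the same strand. H19 was at 1490 ± 365 and 1508 ± 97.5 RPKM. M6pr, which encodes the other mannose 6-phosphate receptor, had means of 31.1 and 32.8 RPKM (log2 fold change 0.08 ± 0.06, SE).

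Of 14 genes of the cyclin-dependent kinase axis on which Cdkn1c acts, 6 were higher and 8 lower, with 1 at an unadjusted p under 0.05. Of 11 tested paralogs of the domain genes, 4 were higher and 7 lower with 0 at that threshold. Among 21 regulators of imprints and of silencing by these RNAs, 4 were higher and 17 lower, where 49.0% of all tested genes were lower. Their differences were small, with a median log2 fold change of -0.02 beside 0.00 over all tested genes. At an unadjusted p under 0.05, 1 was called, where 2.40% of all tested genes were. This was Dppa3, which protects methylation marks in the early embryo and marks germ cells, at 3.65 ± 0.583 RPKM in WT and 5.69 ± 1.01 in MommeD43 (SD, n = 3 each, log2 fold change 0.64 ± 0.16, SE, limma adjusted p = 0.999). Among imprinted genes outside both domains and outside the Snrpn cluster, 12 of 27 tested were higher and 15 lower, with 0 at an unadjusted p under 0.05 and a median of -0.04. In the Snrpn cluster, on chromosome 7 as well, 2 of 7 genes were lower at that threshold, where 0.977% of all tested genes were, with a median of -0.11. Its Mkrn3 was at 1.79 ± 0.154 RPKM in WT and 1.20 ± 0.0286 in MommeD43 (log2 fold change -0.58 ± 0.15, limma adjusted p = 0.999).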

How the data were processed

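RNA from 6 embryos, 3 per genotype, was analyzed. The library kit was stranded per the labels. The submitters' processing notes name Trim Galore 0.4.4, HISAT2 2.0.5 and GRCm38.p6. The authors then used SeqMonk to make the deposited log2 RPKM values, in which counts were scaled by library size and transcript length. The settings of strand in that step are not given in the sources used here. Of 18 genes lying wholly under opposite-strand exons of a gene above 20 RPKM, 6 had no read, and the median level was 0.244% of the covering gene.

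Of 35591 rows, 35555 matched GENCODE M21. Reads were recovered from exon length and the level of genes without a read (0.9 read), and 98.99% of 105978 values were whole within 0.02 read. Intervals on reads are at 95% and cover counting error only. Genes were kept with at least 3 libraries at the CPM of 10 reads in a median library, and at least 15 reads in all. The 13617 autosomal genes kept were tested on deposited log2 RPKM with limma 3.58.1 in R 4.3.3, with a mean-variance trend, no pseudocount and two-sided p, adjusted over all. The sex by genotype term was fitted in the same way. Each library is 1 embryo, and chi-square per gene between libraries was 4.71 to 24.8, so none was a duplicate. Replicate numbers were not taken as pairs.

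In simulated data with 200 of 13617 genes changed, limma recovered 97.0% at 2-fold and 65.5% at 1.5-fold, with 16 and 7 calls among unchanged genes. These shares are over all genes and do not give the power for a variable gene. The 12 yolk sac endoderm markers had a median log2 fold change of -1.11, yet 0 had an unadjusted p under 0.05 (limma). Of the 9 tested genes of the domains, 7 had a residual SD above that of the median tested gene. Recovery was not taken for these 9 alone. The fitted interval stayed within 2-fold either way for 7 of the 9. On a log2 scale it ran from -1.66 to 0.54 for Kcnq1ot1 and from -0.52 to 1.04 for Slc22a3. A 2-fold decrease of Kcnq1ot1 and a 2-fold increase of Slc22a3 were therefore not excluded. Alternatives were a replicate block, a sex covariate, females alone, median-ratio scaling, pseudocounts, filters, voom, and each library left out. The yolk sac covariate was added after seeing the data. The genes and lists were chosen with earlier results of these data known. The naming rule took all 10 genes, 8 fixed genes (1 of which is not reported here), further list genes with an unadjusted p under 0.05 and non-overlapping groups (at most 4 per list), and the 3 neighbors with smallest p per domain. Of the marker lists, the summed level is given for tailbud, neural stem cell, yolk sac, blood and trophoblast.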

Additional observations from a re-analysis of the deposited data

How the results depend on the processing

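No gene of the 2 domains passed an adjusted p of 0.05 (limma) in any of the 16 alternatives, and 1 to 3 of 9 had an unadjusted p under 0.05. The 3 of 9 came with females alone, where 1188 of 13617 autosomal genes had an unadjusted p under 0.05. There were 2 of 9 with voom (425 of 13617) and without WT replicate 1 (944 of 13617). Across all autosomal genes 0 passed adjustment, except that 10 passed with females alone. When 1 library was left out, 187 to 944 had an unadjusted p under 0.05. The median log2 fold change of the 9 genes, 0.01, ranged from -0.11 to 0.066 when each library was left out. It was -0.11 without MommeD43 replicate 1. The sex covariate, the replicate block and the filters leave the log2 fold change unchanged and so could not reverse a sign. With these included, the sign held in 130 of 144 single-gene alternatives. It reversed for Cdkn1c with females alone (-0.052), with voom (-0.0099), and without WT replicate 3 or MommeD43 replicate 1, within a leave-one-out range of -0.11 to 0.15. It reversed for Phlda2 with voom (-0.053), with the yolk sac covariate (-0.037), and without WT replicate 2, WT replicate 3, MommeD43 replicate 1 or MommeD43 replicate 3, within a range of -0.17 to 0.21. For Igf2r it reversed with the yolk sac covariate (0.068) and without WT replicate 2, within a range of -0.18 to 0.066. For Slc22a18 it reversed without WT replicate 3 or MommeD43 replicate 2, within a range of -0.32 to 0.064. The cause was not tested.

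Tssc4, Cd81, Airn, Slc22a3 and Kcnq1ot1 kept their sign. Slc22a3 was at 0.036 without WT replicate 3, 0.56 without WT replicate 2 and 0.054 with a pseudocount of 1 RPKM. Cd81 was at 0.029 without MommeD43 replicate 2 and 0.11 without MommeD43 replicate 3. Leaving out 1 library moved Airn between -0.54, without WT replicate 1, and -0.16, without WT replicate 3, and moved Kcnq1ot1 between -0.78 and -0.43. A pseudocount brought Kcnq1ot1 to -0.26 (0.1 RPKM) and -0.04 (1 RPKM). With the yolk sac covariate Kcnq1ot1 was at -0.38, Cdkn1c at 0.20 and Slc22a18 at -0.0090. In that fit Airn, Slc22a3, Cd81 and Tssc4 were at -0.32, 0.26, 0.083 and 0.21. Leaving out 1 library moved the difference in log2 ratio between 0.11 and 0.41 for Igf2r to Airn, between 0.19 and 0.82 for Slc22a3 to Airn, and between 0.12 and 0.42 for Airn to Kcnq1ot1. For ratios to Kcnq1ot1 the ranges were 0.40 to 0.89 (Cdkn1c), 0.26 to 0.98 (Phlda2), 0.16 to 0.68 (Slc22a18), 0.48 to 0.83 (Cd81) and 0.60 to 1.06 (Tssc4).

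Deviations of same-numbered embryos from their group means correlated at -0.03, 0.17 and -0.17, and the numbers were not used as pairs. For WT replicate 1, correlations with differently numbered MommeD43 embryos were -0.19 and 0.18. Such values from groups of 3 cannot show that pairing is absent. The paper describes 3 somite-matched pairs, and the replicate 1 males share a mother. The replicate block gave 0 adjusted and 307 unadjusted calls among autosomal genes and 0 adjusted calls among the 9, with an unadjusted p of 0.0177 for Tssc4. Slc22a2, Kcnq1 and Mas1 did not pass the filter on low values.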
